A study of Homo sapiens with 6 samples.

Results

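This account covers 10 genes whose levels describe how epithelial or mesenchymal a carcinoma cell is, measured in MDA-MB-231 cells with and without depletion of YAP1. They were the EMT (epithelial-mesenchymal transition) transcription factors ZEB1, ZEB2, SNAI1, SNAI2 and TWIST1, the cadherins CDH1, CDH2 and CDH11, the intermediate filament gene VIM, and the epithelial surface gene EPCAM. The list was set by gene name and makes 10 of the 60612 gene identifiers in the deposited values. All 10 were found. MDA-MB-231 is an established triple-negative breast cancer line of epithelial origin. Its cells stably expressed a control hairpin, Sh-NC (genotype WT in the labels), or a hairpin against YAP1, Sh-YAP1 (genotype YAP1 knockdown), with no further treatment. RNA was collected on day 3, with 3 libraries in each group, and both groups had been kept in L-15 medium. The labels hold a single Sh-YAP1 group, so different hairpins could not be compared. The study's methods speak of independent experiments in general but do not say whether the libraries of a group came from separate cultures, so the p-values below measure the spread between these libraries, which may be technical.

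In EMT, epithelial cells lose their adherens junctions and gain a motile shape. ZEB and SNAI factors are zinc finger repressors that bind E-box letters in promoters such as that of CDH1, and TWIST1 is a basic helix-loop-helix factor of the same programme. E-cadherin (CDH1) joins epithelial cells to each other, while N-cadherin (CDH2) and cadherin-11 (CDH11) are typical of mesenchymal cells, whose filaments are built from vimentin (VIM). YAP1 is a transcriptional coactivator of the Hippo pathway that acts on DNA through TEAD factors. The comparison therefore asks what mesenchymal profile the line had at baseline and whether it differed once YAP1 was depleted.

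In Sh-NC, VIM was very high, ZEB1 and SNAI2 were well above ZEB2, CDH11 and EPCAM, CDH1 and CDH2 were near 0, and TWIST1 was listed at 0. None of the 7 genes whose mean reached 0.5 FPKM passed the limma test in Sh-YAP1. On the log2(FPKM + 1) scale, 6 of the 7 had 95% intervals within -0.5 to 0.5, and the interval of ZEB1 was wider. On this scale the interval of a low gene such as SNAI1 allows a larger fold in FPKM than that of a high gene.

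The values are FPKM, fragment numbers scaled to the length of the transcript and the size of the library, which allows levels of different genes to be set side by side. The level of a gene was the sum of all its transcript rows. The FPKM of a library summed to between 467493 and 475116, and between 13037 and 13219 genes reached 1 FPKM. The depth of the libraries is not known from these values, so no interval for counting error is given. YAP1, the target of the hairpin, stood at 28.1, 26.2 and 22.9 FPKM in Sh-NC and at 3.35, 2.67 and 2.58 FPKM in Sh-YAP1. It fell by 2.79 on the log2 scale (SE 0.12, limma, adjusted p = 0.0018), and the groups lay far apart. The labelled cell type was checked against fixed markers. ESR1 and PGR were near 0, while ERBB2 ran from 14.3 to 18.1 FPKM and GATA3 from 4.64 to 7.34 FPKM, and the keratins KRT8 and KRT18 lay between 99.9 and 164 FPKM. Markers of other cells were low apart from the lysosomal gene CD68, which held nearly all of the leukocyte sum of 56.6 to 79.2 FPKM in Sh-NC and 65.7 to 81.0 FPKM in Sh-YAP1, with PTPRC at 0.04 FPKM or less and CD3E listed at 0. The 7 fibroblast markers summed to between 9.12 and 12.2 FPKM in Sh-NC and between 5.34 and 11.4 FPKM in Sh-YAP1, led by COL1A1, and the 5 endothelial markers to between 1.03 and 2.13 FPKM over all libraries. Their part in the results was not tested.

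Promoter windows were held for 4 of the 10 genes, VIM, CDH2, ZEB1 and ZEB2, in 11 windows of 250 bases upstream of a start (RefSeq, GRCh38.p14). The pair below is shown because ZEB1 had the largest difference and the widest spread of the genes tested, while CDH2 was near 0. They were searched on both strands for the SNAI and ZEB E-box letters CAGGTG or CACCTG and the TEAD letters GGAATG or CATTCC, given in capitals. The ZEB1 window is chr10:31318966-31319215 on the plus strand and the CDH2 window chr18:28177131-28177380 on the minus strand.
ZEB1: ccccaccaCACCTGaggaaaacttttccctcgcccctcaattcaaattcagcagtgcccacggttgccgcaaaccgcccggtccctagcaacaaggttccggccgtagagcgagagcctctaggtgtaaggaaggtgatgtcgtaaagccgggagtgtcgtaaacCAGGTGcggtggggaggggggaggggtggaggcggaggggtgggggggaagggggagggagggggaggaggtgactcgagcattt
CDH2: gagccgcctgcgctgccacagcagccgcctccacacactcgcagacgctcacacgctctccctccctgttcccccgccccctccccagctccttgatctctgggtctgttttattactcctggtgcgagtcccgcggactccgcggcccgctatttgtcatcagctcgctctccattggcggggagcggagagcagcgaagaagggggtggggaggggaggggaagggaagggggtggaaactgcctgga
This ZEB1 window held the E-box letters 2 times, the most of the 7 ZEB1 windows, and was picked for that. Another ZEB1 window held them once and the other 5 held none. This CDH2 window, 1 of 2, held none, nor did the other CDH2 window or those of VIM and ZEB2. None of the 11 windows held the TEAD letters. Among all 35116 windows of this length, 17.5% held the E-box letters and 11.9% the TEAD letters. These matches describe letters and are not binding sites.

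The levels of the genes in Sh-NC fell into steps. VIM was 173 times the next gene, SNAI2. SNAI2 and ZEB1 overlapped in range and could not be ordered, and both lay above ZEB2 in every library. ZEB2 lay above CDH11 and EPCAM, whose ranges overlapped each other. SNAI1 came next, above CDH1 and CDH2, whose ranges overlapped. TWIST1, listed at 0, was given no place in this order. In Sh-YAP1 the steps were alike, but ZEB1 had the higher mean of the overlapping ZEB1 and SNAI2, the ranges of ZEB2 and CDH11 overlapped, and CDH11 lay above EPCAM without overlap.

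**Figure D1:**
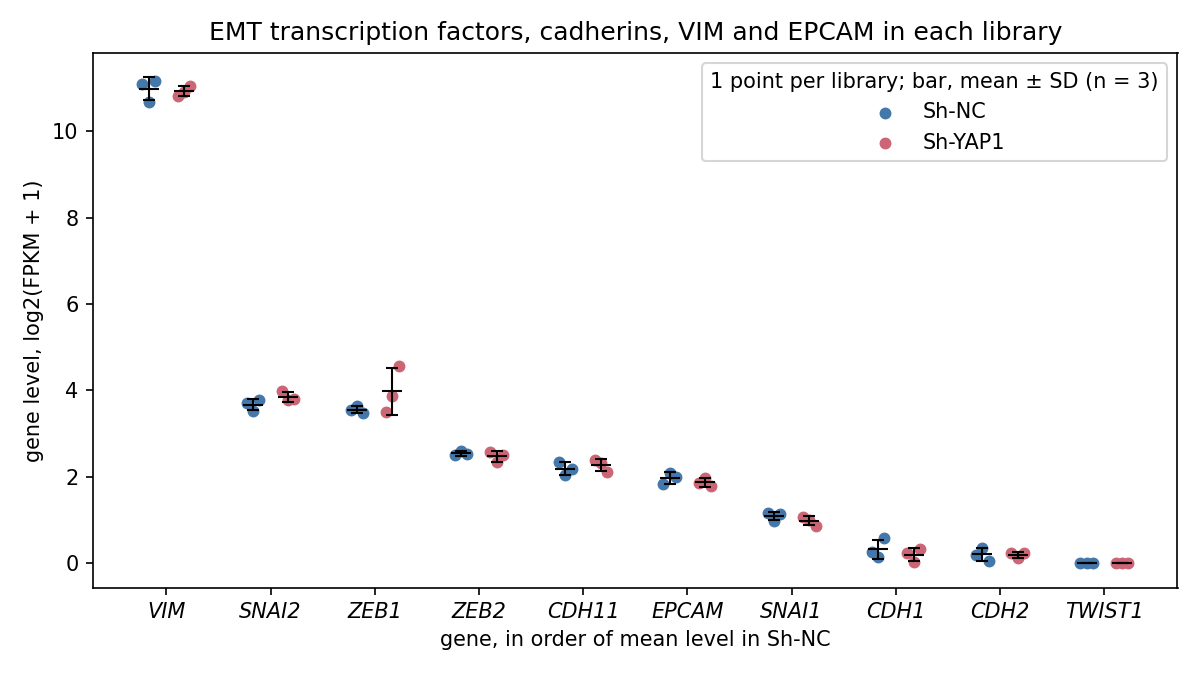
Level of each gene in each library, as log2(FPKM + 1), for Sh-NC and Sh-YAP1. Points are libraries and bars the mean ± SD of 3 libraries. VIM stands above all other genes, TWIST1 is listed at 0 in all 6 libraries, and no gene has groups that stand apart.

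ZEB1 (ENSG00000148516, chr10:31318495-31529814, plus strand) encodes the zinc finger repressor of CDH1 and of the miR-200 family. It read 10.7, 11.4 and 10.1 FPKM in Sh-NC and 10.3, 13.6 and 22.7 FPKM in Sh-YAP1. Sh-YAP1 replicates 2 and 3 stood above all Sh-NC libraries, while Sh-YAP1 replicate 1 lay inside the Sh-NC range. The means were 10.7 ± 0.655 and 15.6 ± 6.42 FPKM (SD, n = 3 each). On the log2(FPKM + 1) scale, used for every difference below, Sh-YAP1 was 0.43 higher (SE 0.25, 95% interval -0.18 to 1.04), and the difference did not pass the test (limma, adjusted p = 0.376). Permuting the 6 values exactly (two-sided) gave p = 0.3, where 0.1 is the smallest p that 3 against 3 libraries allow. The size of the difference moved with the library left out. It was 0.13 without Sh-YAP1 replicate 3 and 0.67 without Sh-YAP1 replicate 1, where the unadjusted p was 0.023 and the adjusted p 0.194 (limma).

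The rows of ZEB1 moved far more between libraries than their sum did. The files list 25 rows for ZEB1 without transcript names, and the highest of them held 62.4% of the mean. That row read 6.52, 9.39 and 1.37 FPKM in Sh-NC and 0.93, 11.3 and 19.7 FPKM in Sh-YAP1. It was low in 1 library of each group. The second row ran the other way, with 7.16 FPKM in Sh-NC replicate 3 and 2.59 FPKM in Sh-YAP1 replicate 1 against 0.44 to 0.60 FPKM elsewhere. The high value of Sh-YAP1 replicate 3 lay in the first row, and without that row its ZEB1 total was 3.00 FPKM, within the span of 2.01 to 9.41 FPKM of the other libraries.

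**Figure D2:**
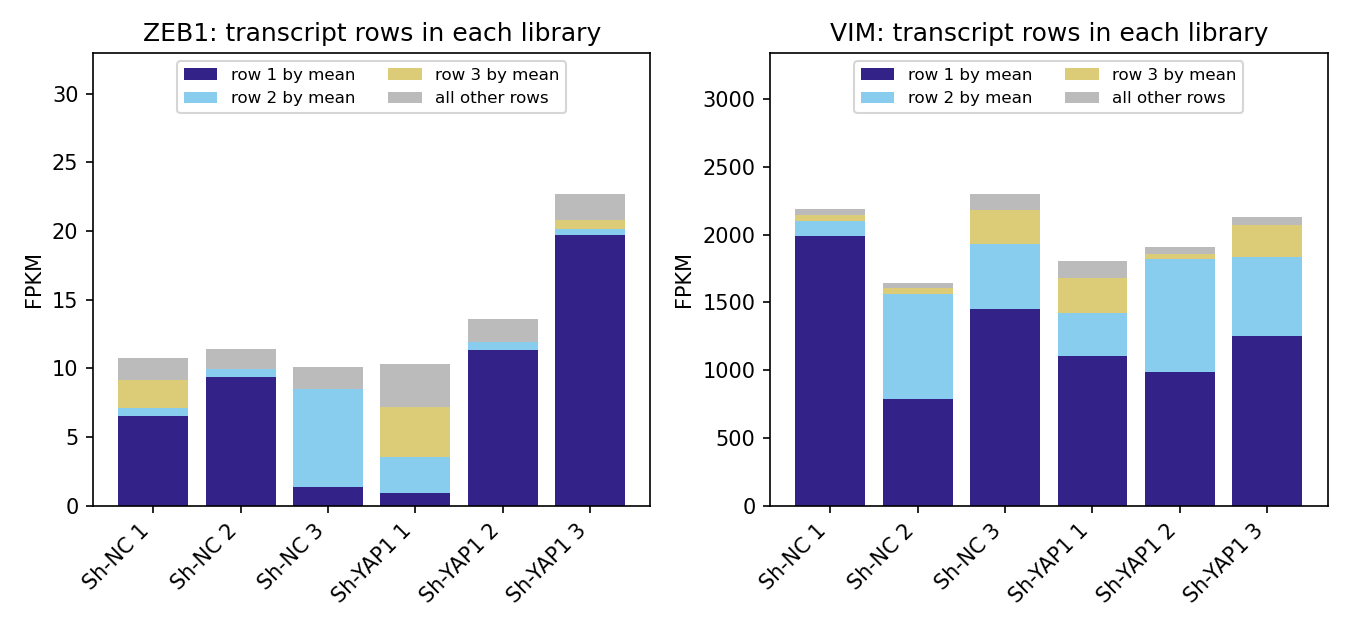
FPKM of the 3 highest transcript rows and of all other rows of ZEB1 (left) and VIM (right) in each of the 6 libraries, stacked to the gene total. The first ZEB1 row runs from 0.93 to 19.7 FPKM, both in Sh-YAP1, and the first VIM row from 786.9 to 1989 FPKM, both in Sh-NC.

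ZEB2 (ENSG00000169554, chr2:144364364-144524583, minus strand) is the paralog of ZEB1. It read 4.64, 5.09 and 4.80 FPKM in Sh-NC and 4.99, 4.05 and 4.66 FPKM in Sh-YAP1. The groups overlapped, and the difference of -0.07 (SE 0.10, 95% interval -0.30 to 0.16) did not pass the test (limma, adjusted p = 0.707). The ZEB2 total was steady, with a spread of 4.71% of the mean in Sh-NC and 10.4% in Sh-YAP1. Its first row held 61.3% of the mean and ran from 2.60 to 3.26 FPKM in all libraries. Of the 10 rows tested, a pair of low rows had groups that did not overlap, beside 13.1% of all transcript rows tested. The higher of the pair read 0.66, 0.19 and 0.64 FPKM in Sh-NC and 0.17, 0.00 and 0.08 FPKM in Sh-YAP1. Neither passed the test over all transcript rows.

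SNAI2 (ENSG00000019549, chr8:48917604-48921740, minus strand) encodes Slug, a repressor of CDH1 that is common in basal breast cells. It read 12.0, 10.6 and 12.8 FPKM in Sh-NC and 14.9, 12.7 and 12.9 FPKM in Sh-YAP1. Only the lowest Sh-YAP1 library lay under the highest Sh-NC library. The means were 11.8 ± 1.11 and 13.5 ± 1.20 FPKM (SD, n = 3 each). The difference of 0.18 (SE 0.10, 95% interval -0.06 to 0.42) was the closest of all to the threshold and did not pass it (limma, unadjusted p = 0.122, adjusted p = 0.351). The first row carried 93.8% of SNAI2, and on that row 2 of the 3 Sh-YAP1 libraries, at 11.4 and 11.8 FPKM, lay under the highest Sh-NC library, at 12.3 FPKM.

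SNAI1 (ENSG00000124216, chr20:49982999-49988886, plus strand) encodes Snail, a labile factor controlled largely through its protein. It was the lowest factor above 0, at 1.23, 0.97 and 1.21 FPKM in Sh-NC and 1.10, 1.01 and 0.83 FPKM in Sh-YAP1. The ranges overlapped, and the difference of -0.11 (SE 0.11, 95% interval -0.38 to 0.16) did not pass the test (limma, adjusted p = 0.612). SNAI1 had 1 row. TWIST1 (ENSG00000122691, chr7:19020991-19117672, minus strand) was listed at 0 in all 3 of its rows and all 6 libraries, so it gave neither a level nor a difference.

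Among the 3 cadherins of the list, CDH11 was the one measured above 1 FPKM. CDH11 (ENSG00000140937, chr16:64943753-65126112, minus strand), known as osteoblast cadherin, read 4.05, 3.14 and 3.53 FPKM in Sh-NC and 4.24, 3.98 and 3.32 FPKM in Sh-YAP1. It made 86.9% to 97.5% of the summed CDH1, CDH2 and CDH11 of a library. The groups overlapped almost fully, and the difference of 0.08 (SE 0.12, 95% interval -0.20 to 0.37) did not pass the test (limma, adjusted p = 0.728). The first row held 81.4% of CDH11, and 11 of its 19 rows were at 0 in all libraries.

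CDH1 and CDH2 were under the minimum mean of 0.5 FPKM. CDH1 (ENSG00000039068, chr16:68737225-68835548, plus strand) read 0.19, 0.10 and 0.49 FPKM in Sh-NC and 0.17, 0.02 and 0.26 FPKM in Sh-YAP1. CDH2 (ENSG00000170558, chr18:27950966-28177446, minus strand) read 0.15, 0.28 and 0.04 FPKM in Sh-NC and 0.18, 0.08 and 0.17 FPKM in Sh-YAP1. Both stayed under 0.5 FPKM in every library, and the SD within a group was 38.4% to 80.8% of the mean. When the minimum was dropped, the difference was -0.13 for CDH1 (95% interval -0.45 to 0.20, limma, adjusted p = 0.714) and -0.01 for CDH2 (95% interval -0.22 to 0.19, limma, adjusted p = 0.950), so neither passed the test in that fit. With 1 FPKM added to each value, even a complete loss from these levels would be a small difference, inside these intervals. This fit therefore cannot decide whether either gene changed. In all 6 libraries CDH11 was the higher of the mesenchymal pair CDH2 and CDH11.

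VIM (ENSG00000026025, chr10:17228259-17237593, plus strand) was among the most abundant RNAs of the line, between the 17th and the 24th gene of a Sh-NC library. It read 2188, 1645 and 2303 FPKM in Sh-NC and 1805, 1909 and 2127 FPKM in Sh-YAP1. All 3 Sh-YAP1 libraries lay within the Sh-NC range. The means were 2045 ± 351.5 and 1947 ± 164.3 FPKM (SD, n = 3 each). The difference of -0.06 (SE 0.14, 95% interval -0.40 to 0.28) did not pass the test (limma, adjusted p = 0.845), and it was 0.03 without Sh-NC replicate 3. In this fit the interval lay within a change of 1.41-fold in VIM RNA in either direction. Over the alternatives the estimate ran from -0.208 to 0.034, and their intervals are not given.

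The rows of VIM also varied between libraries. The first row read 1989, 786.9 and 1454 FPKM in Sh-NC and 1101, 987.8 and 1251 FPKM in Sh-YAP1. The second read 109.9, 775.7 and 478.9 FPKM in Sh-NC and 317.9, 832.6 and 582.3 FPKM in Sh-YAP1, a 7.58-fold range between libraries. Where the second row was lowest, in Sh-NC replicate 1, the first was highest. Together both rows made 89.1% of VIM. For ZEB1 and VIM the sum over rows was therefore steadier than the leading row.

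EPCAM (ENSG00000119888, chr2:47345158-47387601, plus strand), a homophilic adhesion protein of epithelia, was low but present. It read 2.54, 3.27 and 3.02 FPKM in Sh-NC and 2.64, 2.94 and 2.43 FPKM in Sh-YAP1. The groups overlapped, and the difference of -0.10 (SE 0.11, 95% interval -0.37 to 0.16) did not pass the test (limma, adjusted p = 0.643). In Sh-NC replicate 2 the first EPCAM row was at 0.00 FPKM against 2.10 to 2.54 FPKM in the other libraries, while the EPCAM total of that library was the highest of all. EPCAM lay above CDH1 in every library, and its range overlapped that of CDH11 in Sh-NC but not in Sh-YAP1.

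Counted over the list, 0 of the 7 genes tested passed the adjusted threshold in limma, 0 reached an unadjusted p under 0.05, and 0 had groups that did not overlap. Over all 14770 genes tested, 3.38% were called (1.75% higher and 1.62% lower in Sh-YAP1), 21.9% reached an unadjusted p under 0.05, and 29.4% had groups that did not overlap (14.6% higher and 14.7% lower). With 7 genes, a count of 0 called is near that background of 3.38%. The differences were positive for 3 genes and negative for 4, with a median of -0.059. The median size of the difference was 0.102, beside 0.161 over all genes tested. CDH1, CDH2 and TWIST1 were left out of these counts because their mean was under 0.5 FPKM. Of the 141 transcript rows of the 10 genes, 41 were tested and 0 were called by limma, with 2 at an unadjusted p under 0.05 and 3 whose groups did not overlap, all 3 lower in Sh-YAP1. Over all 77655 rows tested the shares were 0.0515% called, 6.12% at an unadjusted p under 0.05 and 13.1% without overlap.

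**Figure D3:**
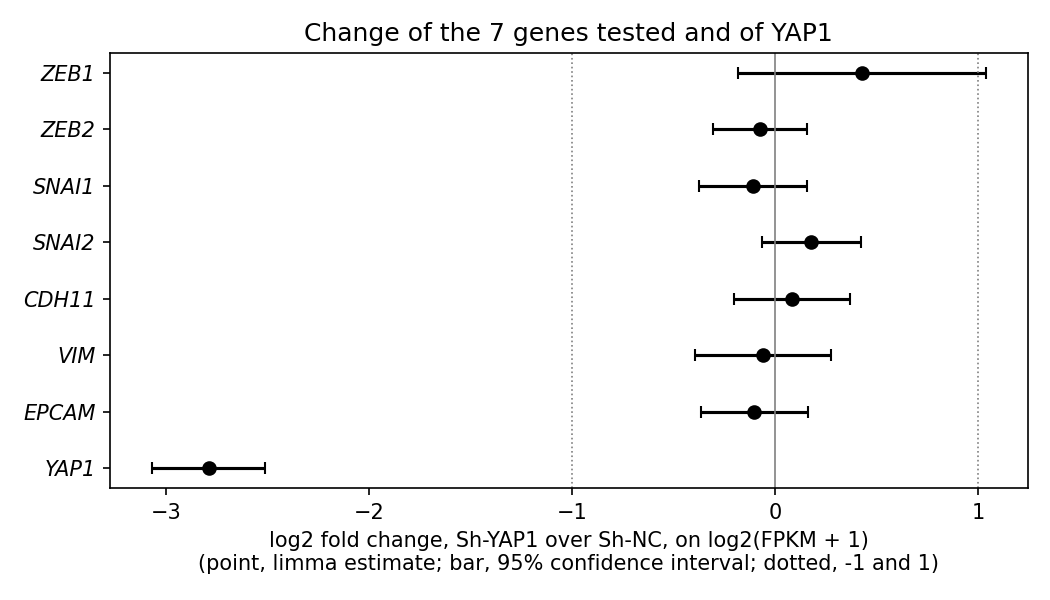
Difference between Sh-YAP1 and Sh-NC on log2(FPKM + 1) for the 7 genes tested and for YAP1, with the limma estimate as a point and the 95% interval as a bar. All 7 intervals cross 0 and only that of ZEB1, -0.18 to 1.04, reaches the dotted line at 1, while YAP1 lies at -2.79.

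Reads of neighbours could enter some of these totals, since the use of strand in the counting is not given in the sources used here. In GENCODE 29 (GRCh38), 21 genes overlap 1 of the 10, of which 11 were listed at 0 throughout and 4 reached 1 FPKM. VIM-AS1, antisense to VIM, read 4.23, 11 and 6.91 FPKM in Sh-NC and 4.87, 48.1 and 4.28 FPKM in Sh-YAP1, with 1 high library. AL133415.1, also opposite to VIM, read 8.93, 10.6 and 9.79 FPKM in Sh-NC and 9.93, 11.7 and 9.02 FPKM in Sh-YAP1. ZEB1-AS1 read 2.87, 2.57 and 2.74 FPKM in Sh-NC and 3.28, 3.18 and 2.95 FPKM in Sh-YAP1. Its groups did not overlap, but its difference of 0.15 (SE 0.09) did not pass the test (limma, adjusted p = 0.366). The pseudogene SPTLC1P1 inside ZEB1 lay between 1.27 and 3.63 FPKM. The part of these neighbours in the totals was not tested. Of the 7 antisense or divergent neighbours listed, 5 were matched by name, 3 were tested and 0 passed the test (limma), with 0 at an unadjusted p under 0.05.

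The partners and regulators of the 10 genes were read from 8 lists of 136 genes, of which 82 were tested. Of these, 12 passed the test, 4 higher and 8 lower in Sh-YAP1, which is 14.6% beside 3.38% of all genes, and the median difference of the 82 was -0.0332. The lists were chosen with earlier results of these data known, so this comparison of shares is not independent of the data. With any 1 of the 6 libraries left out, between 2 and 5 of the 12 stayed called. TCF3 and EZH2 stayed in all 6 such fits and SOX4 in 5, the exception being the fit without Sh-NC replicate 1. CDH4 and AP1M2 stayed in 1, without Sh-NC replicate 3, and the other 7 in none.

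Of 15 other EMT transcription factors, 8 were tested, 2 rose and 0 fell, with a median of 0.0135. TCF3, which encodes the E-box factors E12 and E47, read 14.2, 12.5 and 13.4 FPKM in Sh-NC and 23.4, 22.5 and 23.0 FPKM in Sh-YAP1 (difference 0.74, SE 0.07, limma, adjusted p = 0.00978). Of its 16 rows tested, 0 were called (limma), 2 had an unadjusted p under 0.05 and 4 were higher in Sh-YAP1 without overlap. Over all rows tested, 6.12% reached an unadjusted p under 0.05 (limma) and 13.1% were without overlap in either direction. The highest of the 4 TCF3 rows read 2.97, 0.00 and 5.54 FPKM in Sh-NC and 11.9, 10.6 and 11.4 FPKM in Sh-YAP1. Without that row the TCF3 totals overlapped, at 7.87 to 12.5 FPKM in Sh-NC and 11.5 to 12.0 FPKM in Sh-YAP1. SOX4, a factor upstream of EMT genes, read 5.71, 5.72 and 5.50 FPKM in Sh-NC and 11.2, 10.1 and 9.93 FPKM in Sh-YAP1 (difference 0.78, SE 0.08, limma, adjusted p = 0.0108). Both groups were tight, and neither TCF3 nor SOX4 overlapped between them, unlike ZEB1, ZEB2, SNAI1 and SNAI2.

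Among 13 corepressors of the ZEB and SNAI factors, 12 were tested, 3 fell and 0 rose. EZH2, the histone H3 lysine methyltransferase of the Polycomb complex, read 35.1, 35.3 and 37.1 FPKM in Sh-NC and 22.5, 21.4 and 21.2 FPKM in Sh-YAP1 (difference -0.70, SE 0.07, limma, adjusted p = 0.00881). AJUBA, a LIM protein that binds SNAI factors, and RCOR1, the CoREST scaffold, fell by 0.56 and 0.38 on the log2 scale (limma, adjusted p = 0.0232 and 0.0349). Of 12 genes for SNAI protein turnover, 10 were tested and 0 passed (limma), with 2 at an unadjusted p under 0.05, near the 21.9% of all genes. The highest in level were CTDSP1, a phosphatase, with a difference of -0.63 (SE 0.15), and CSNK2A1, a casein kinase subunit, with 0.52 (SE 0.28). CSNK2A1 read 29.5, 32.9 and 14.7 FPKM in Sh-NC and 37.8, 34.4 and 33.8 FPKM in Sh-YAP1. Its difference leaned on the low value of Sh-NC replicate 3.

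The epithelial regulators that oppose ZEB factors were largely missing in both groups. Of 15, 4 were tested and 0 passed (limma), with 2 at an unadjusted p under 0.05, beside 21.9% of all genes. The other 11 had a mean under 0.5 FPKM. GRHL2, OVOL2, ELF5 and MIR200CHG, the host of a miR-200 cluster, were listed at 0. The highest were KLF5, at 13.0, 13.9 and 14.0 FPKM in Sh-NC and 10.97, 9.96 and 10.4 FPKM in Sh-YAP1 (limma, adjusted p = 0.0587), and KLF4, at 5.55 to 9.95 FPKM and 10.5 to 12.0 FPKM.

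The junction lists held other cadherins to set beside CDH11. Of 24 related cadherins, 19 had a mean under 0.5 FPKM and 5 were tested, of which CDH4 fell and 0 rose. CDH4, or R-cadherin, was higher than CDH11 in every library, at 23.4, 24.4 and 20.6 FPKM in Sh-NC and 14.9, 16.0 and 16.0 FPKM in Sh-YAP1 (difference -0.51, SE 0.09, limma, adjusted p = 0.0340). CDH4 is named because it was called and did not have the highest mean of the list. Of 10 catenins and linkers, 7 were tested, and the actin linker VCL fell by 0.42 on the log2 scale (limma, adjusted p = 0.0447). Of 28 epithelial junction and surface genes, 19 were tested, and AP1M2, the epithelial clathrin adaptor subunit, fell by 1.05 on the log2 scale (limma, adjusted p = 0.0251), with a list median of -0.18. EPCAM and CDH1 would belong here by function, and their values are given above.

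The mesenchymal and filament list moved in both directions. Of 20 genes, 18 were tested, 2 rose and 2 fell, with a median of -0.0162. Among them TGFBI (0.64) and NES (0.46) were higher and AXL (-0.35) was lower in Sh-YAP1 (limma, adjusted p between 0.0211 and 0.0397). TGFBI is a matrix protein, NES the filament protein nestin and AXL a receptor tyrosine kinase. Of the 8 luminal epithelial markers, which include CDH1 and EPCAM, 6 were tested and 1 was called, beside 3.38% of all genes. This was KRT19, which fell by 0.50 on the log2 scale (limma, adjusted p = 0.0273) but was not called when any 1 library was left out. Their summed level was 193.2 to 221.4 FPKM in Sh-NC and 143.3 to 152.1 FPKM in Sh-YAP1, of which KRT19 made 83.5% to 87.4%. KRT7 was the next highest, at 14.7 to 18.5 FPKM in Sh-NC and 11.2 to 15.6 FPKM in Sh-YAP1. The part of this shift in the level of EPCAM was not tested.

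**Figure D4:**
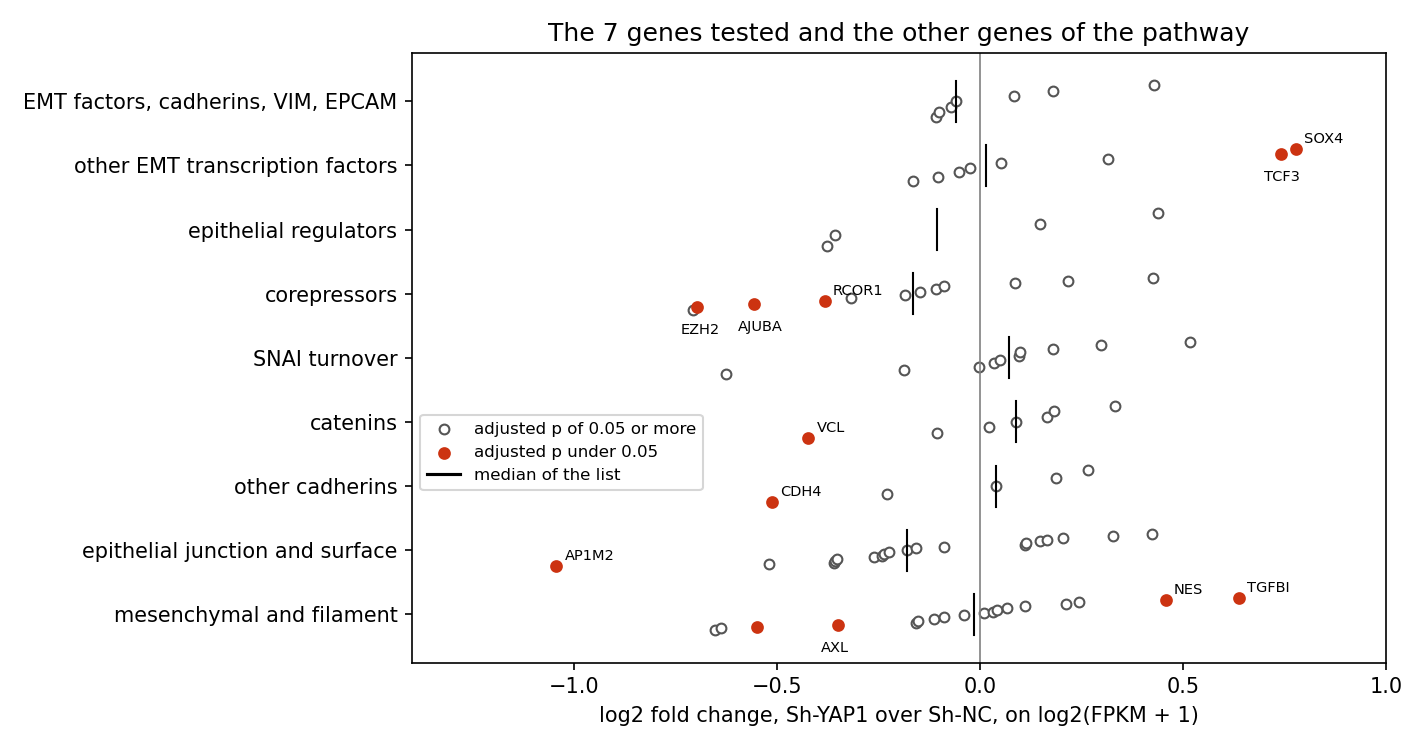
Difference between Sh-YAP1 and Sh-NC on log2(FPKM + 1) for each tested gene of the EMT set and of the 8 lists of partners and regulators, with the list median as a line. Filled points passed an adjusted p of 0.05 (limma): 0 of 7 in the top line, and 12 of 82 in the lists, from AP1M2 at -1.05 to SOX4 at 0.78, and 11 of the 12 carry their name.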

How the data were processed

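The authors deposited FPKM, 1 value per transcript row and library with 2 decimals, for 229420 rows that carry a gene identifier and no transcript name. Per the labels, total RNA was extracted with TRIzol. The paper's methods give LC-Bio as the sequencing provider under another data series, and these libraries were matched to it by cell line, hairpin and replicate number only. The submitters' processing notes name HISAT2 2.0, Bowtie 0.12.2 and the build hg19, with no role or order. The quantifier, the annotation and the use of strand are not given in the sources used here. Positions come from GENCODE 29 on GRCh38 and promoters from RefSeq, another build than hg19, and the files hold no coordinates.

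Rows were summed per gene identifier. Values were compared as log2(FPKM + 1) with limma 3.58.1 in R 4.3.3 (lmFit, then eBayes with a trend of variance on mean, group as the only factor, all 6 libraries), with Benjamini-Hochberg adjustment over all features tested and a threshold of 0.05. Genes were kept at a mean of at least 0.5 FPKM (14770) and rows at 0.1 FPKM (77655). No count test was used, since FPKM are not counts. Fold changes of low genes are understated on this scale. The code was tested on simulated data. Other steps used Python 3.11.15 with pandas 2.3.3 and matplotlib 3.10.9.

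The 10 genes, the lists and the alternatives were chosen with earlier results of these data known. By rule, the text names all 10 genes, YAP1, up to 4 called genes per list by size of change, and otherwise the 2 highest of a list. One of the called genes is not reported here by name. KRT19, the overlapping genes and the listed zeros were named after their values were seen. The alternatives were other pseudocounts (0.1 and 0.01), no or a stricter filter, quantile or median scaling, no trend, a block for the replicate number, sums without low rows, and leaving out each library in turn.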

Additional observations from a re-analysis of the deposited data

How the results depend on the processing

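None of the 7 genes tested was called under any of the 15 alternatives, with adjusted p from 0.194 to 0.995 (limma), and 104 of their 105 values kept their direction. The exception was VIM, at 0.0342 without Sh-NC replicate 3, with a range of -0.208 to 0.0342 over the libraries left out. Over all alternatives the differences of the other 6 ran from 0.13 to 0.67 for ZEB1, -0.13 to -0.0044 for ZEB2 (nearest 0 without Sh-YAP1 replicate 2), -0.21 to -0.054 for SNAI1 (nearest 0 without Sh-YAP1 replicate 3), 0.11 to 0.23 for SNAI2, 0.014 (without Sh-NC replicate 2) to 0.18 (low rows dropped) for CDH11 and -0.18 to -0.042 for EPCAM (without Sh-NC replicates 1 and 2 in turn). YAP1 stayed past the threshold in all 15, from -3.17 to -2.73. The counts over all features moved more. Against 499 genes called, 232 were called with no filter, 1 with the replicate number as a block, and 78 to 171 with 1 library left out. Against 12 partner and regulator genes, 6 were called with no filter, 0 with the block (27 of 82 at an unadjusted p under 0.05, beside 2779 of all 14770 genes, limma) and 2 to 5 with 1 library left out. Against 40 transcript rows, 75 and 73 were called with pseudocounts of 0.1 and 0.01, 62 with the stricter filter, 74 with no trend, 0 with the block and 16 to 36 with 1 library left out. The cause was not tested. Libraries of the same number correlated at -0.0285, 0.0621 and 0.0042 in their deviations from the group means, so no strong shared deviation was seen. The labels do not say whether such libraries were handled together, and these values cannot settle it. Depth is unknown, so the limit on low genes such as CDH1, CDH2 and TWIST1 cannot be given.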
